A study of Mus musculus with 2 samples.

Results

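The genes described here encode the digestive compartment of the phagocyte: the soluble enzymes of the lysosome, the helper proteins that work beside them, the proteins of its limiting membrane and the pump that acidifies it. Members were the gene rows whose symbol was on a list of 23 lysosomal genes, or whose symbol starts with Atp6v, the prefix of the vacuolar proton pump. The rule found all 23 listed genes and 22 pump genes, so 45 of 31053 gene rows. By role these were 11 soluble hydrolases, 3 soluble cofactors, 9 membrane proteins and 22 pump genes. The rule itself reads gene symbols and no measured value, though it was drawn up with earlier results of these data known.

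Lung cells came from female C57BL/6J mice, with lungs of 8 mice pooled for each of 3 treatments. Mice of the asthma group were sensitised by intraperitoneal ovalbumin (OVA) with Alum, an aluminium and magnesium hydroxide adjuvant, and challenged with intranasal OVA. Mice of the tolerance group inhaled OVA before they went through the asthma protocol, and control mice had Alum without OVA and intranasal saline. DCs were sorted as MHC-II high, CD11c high cells negative for MerTK, CD64 and Ly6C, alveolar macrophages were sorted too, and cells of each treatment carried their own hashtag and a tag for CLEC12A. Equal numbers were mixed and run on 2 lanes of a droplet platform that counts the 3′ ends of transcripts as unique molecular identifiers (UMIs). Since the lanes split the same cells, a treatment has 1 pool and its comparison with another could not be tested.

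The 6 files of a pool and a lane held 10901 barcodes in all, with 7897139 to 11459855 UMIs per file, and no barcode was shared between files. After quality control 9863 cells remained. Cells were placed in classes by marker genes, none of which is a member: a cell needed UMIs of at least 3 markers of a class and at least 2 more than of any other class. This gave 4836 alveolar macrophages, 966 interstitial macrophages, 294 cDC1, 684 cDC2, 318 mature DCs and 373 nonclassical monocytes, and the names stand for these gates. The cDC1 and cDC2 are called resting only to set them apart from the mature DC gate. By markers of the cell cycle 74 cDC1, 129 cDC2 and 4 mature DCs were cycling. Interstitial macrophages and monocytes were found although the DC sort was set to leave out such cells. The 38 classical monocytes were too few for a test. A further 1380 cells passed no gate. The markers of each of the 6 classes were all detected in it. Control libraries were the smallest of interstitial macrophages, with 55 cells and 276673 UMIs, and of mature DCs, with 29 cells and 127684 UMIs.

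Lysosomes degrade what macrophages and DCs take up. Soluble hydrolases cut proteins, lipids and sugars at low pH, and cofactors such as the saposins, which are made from Psap, present lipids to them. LAMP proteins line the membrane, transporters carry the products out, and the vacuolar ATPase brings protons in through a membrane sector, V0, driven by a cytosolic sector, V1. In DCs the same compartment processes antigen, and maturation is known to change how it is acidified and how fast it degrades its load.

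Alveolar macrophages held the largest share of member transcripts among the gated classes and the 2 reference classes of lymphocytes. The 45 genes made up 1.72% ± 0.0976 of their UMIs (SD over the 3 pools, which here includes any effect of treatment), and 1.55% ± 0.247 of those of interstitial macrophages. The share was 1.12% ± 0.0224 in cDC1, 0.986% ± 0.0459 in nonclassical monocytes, 0.814% ± 0.150 in mature DCs and 0.787% ± 0.0723 in cDC2. The ranges of the pools overlapped between both macrophage classes, between nonclassical monocytes and mature DCs and between mature DCs and cDC2. The few classical monocytes had 1.35% ± 0.0709, and B cells, counted as a reference, had 0.334% ± 0.0174.

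The roles were not spread in the same way. Pump genes gave 0.502% of UMIs in alveolar macrophages and between 0.197% and 0.272% in the other 5 classes, with no overlap of pools between alveolar macrophages and any of them. Soluble hydrolases were led by cDC1, at 0.340% ± 0.0130, above 0.244% ± 0.0130 in alveolar macrophages, and mature DCs, at 0.0567% ± 0.00440, lay near the 0.0492% ± 0.00484 of B cells. For membrane proteins the order was different, with cDC1 lowest at 0.114% ± 0.00711 and alveolar macrophages at 0.454% ± 0.0202. Thus cDC1 combined a high share of the 11 hydrolases among the members, most of it Naaa and Ppt1, with a low share of membrane proteins. Of 40 further hydrolases that are not members, 5 were higher and 9 lower in cDC1 than in cDC2. Mature DCs had a low hydrolase share with membrane proteins at 0.211% ± 0.0221, above all 3 pools of cDC2.

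**Figure D1:**
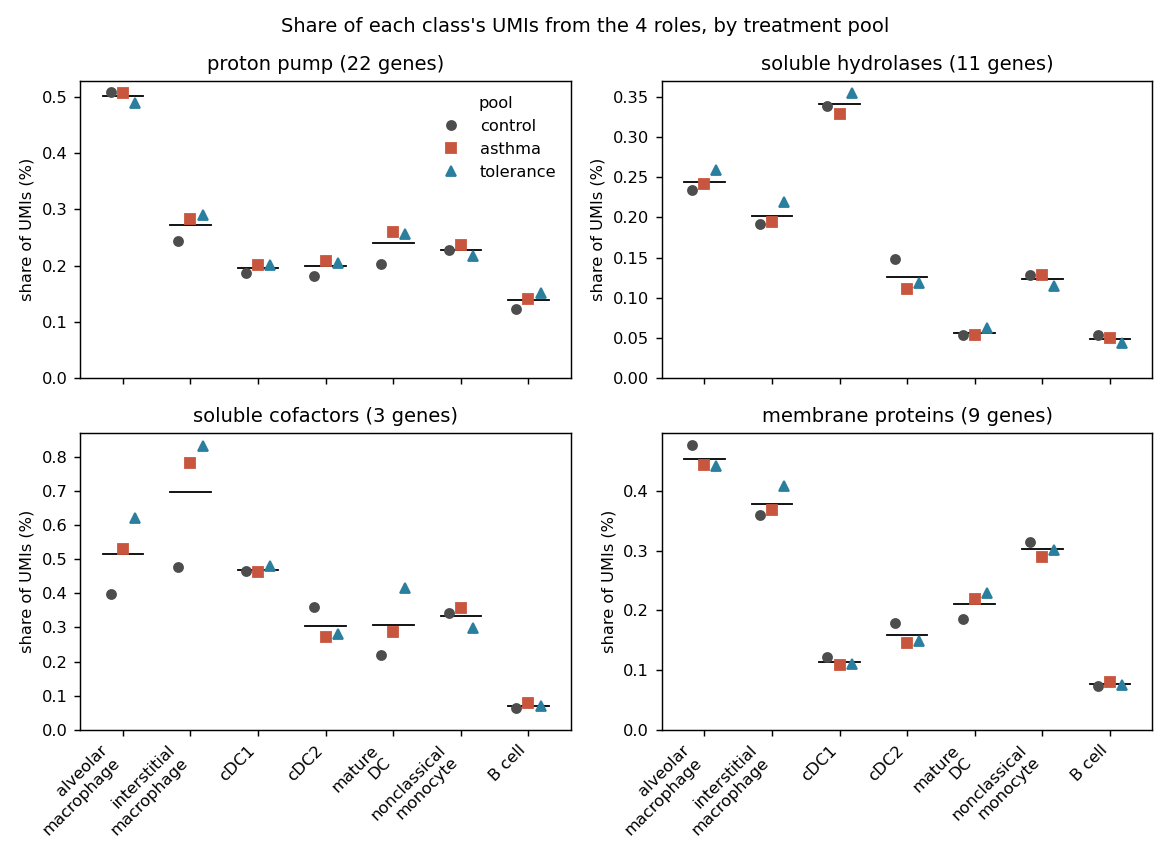
Share of all UMIs of a class (percent, vertical axes from 0) that came from the genes of each role, with 1 symbol per treatment pool and a black line at the mean of the 3 pools. Pump genes stand apart in alveolar macrophages (0.502%), and cofactors differ between pools in macrophages and mature DCs. Hydrolases are highest in cDC1 (0.340%, most of it Naaa and Ppt1) and near the level of B cells in mature DCs.

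Of the 45 members 36 had at least 1000 UMIs over the 6 classes. Their highest mean level was in alveolar macrophages for 21, in interstitial macrophages for 7, in cDC1 for 5 and in mature DCs for 3, and in cDC2 or nonclassical monocytes for 0. How all genes divide in this way was not counted. Alveolar macrophages, with 26216398 UMIs, weigh most in the limit of 1000 UMIs. The 5 of cDC1 were Ppt1, Naaa, Arsb, Man2b1 and Atp6v0a2, and the 3 of mature DCs were Cd63, Npc2 and Atp6v0a1. In the test, 37 members passed the filter on low counts. The 8 that did not were the pump genes Atp6v0a4, Atp6v0c, Atp6v0e2, Atp6v1b1, Atp6v1c2, Atp6v1e2, Atp6v1g2 and Atp6v1g3. Of these Atp6v0a4, Atp6v1b1 and Atp6v1e2 had no UMI in the 6 classes, and Atp6v0c had 176. Processed pseudogenes of Atp6v0c and Cd63 are annotated, and whether the counting lost reads shared with them was not tested.

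Among resting DCs, cDC1 carried more of several hydrolase transcripts than cDC2, and fewer Lamp1 and Lamp2 transcripts, 2 calls that were lost when clusters replaced the marker gate. In cDC1 9 of the 37 members tested were higher, beside 8.08% of all 8971 genes tested, and 6 were lower, beside 7.9%. The 15 calls are 40.5% of members, where 16.0% of all genes were called. By role, 5 of 11 hydrolases were higher and 1 lower, 4 of 9 membrane proteins were lower and 1 higher, and 2 of 14 pump genes were called. The median log2 fold change was 0.03 over members and 0.00 over all genes. Levels are given in CPM, the UMIs of a gene over all UMIs of the class and pool, times 1000000, and fold changes and errors come from a fit over all genes in which the classes of a pool are paired.

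Ppt1 (chromosome 4, bases 122836242 to 122859175, GRCm38), the palmitoyl-protein thioesterase that strips fatty acids from proteins, set cDC1 apart. Its level was 750.2 CPM in cDC1 of the control pool, 663 in the asthma pool and 863 in the tolerance pool, while cDC2 had 55.6, 57.2 and 50.2. All 3 cDC1 values were far above those of cDC2, and above the 155 to 182 of alveolar macrophages, the class next in order. The log2 fold change against cDC2 was 3.88 ± 0.16 (SE; adjusted p = 2.64e-13). A UMI of Ppt1 was found in 97.6% of cDC1 (exact 95% interval 95.2 to 99.0) and in 31.4% of cDC2 (28.0 to 35.1), at medians of 7401 and 7201 UMIs per cell. Among B cells, which have shallower libraries, 12.7% had a UMI. With cells thinned to 2000 UMIs the shares were 75.8% in cDC1, 10.1% in cDC2 and 8.62% in B cells.

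Naaa, an acid amidase that breaks down palmitoylethanolamide, and Arsb, the sulfatase of dermatan sulfate, were also highest in cDC1. Naaa had 1301, 1502 and 1504 CPM in cDC1 of the control, asthma and tolerance pools and 409.6, 387 and 327 in cDC2. No pool of cDC2 came near a pool of cDC1, and the log2 fold change was 2.02 ± 0.25 (adjusted p = 3.55e-06). Arsb had 165, 153 and 169 CPM in cDC1 against 80.5, 37.8 and 37.2 in cDC2, a log2 fold change of 1.88 ± 0.22 (adjusted p = 2.02e-06). The control pool of cDC2 was the one that stood closest to cDC1. Gusb, the beta-glucuronidase, was 1.17 ± 0.24 log2 units higher and Man2b1, a lysosomal mannosidase, 0.86 ± 0.16 units.

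Tpp1, a serine protease that takes tripeptides off protein ends, was the 1 hydrolase that was lower in cDC1. Its level in cDC1 was 5.70, 4.69 and 3.85 CPM, from 11 UMIs in all, and in cDC2 it was 32.2, 32.8 and 37.2. The groups were well apart, at a log2 fold change of -2.79 ± 0.34 (adjusted p = 4.40e-06), and the call was lost with cells thinned to 2000 UMIs (adjusted p = 0.054). The membrane genes that were lower in cDC1 were Lamp1, Lamp2, Npc1, which exports cholesterol, and Cd68, a macrosialin of the LAMP family. Of 15 alternatives the call held in 14 for Lamp1, 10 for Lamp2, 8 for Cd68 and 7 for Npc1. The pump gene Atp6v1a, the catalytic A subunit of V1, had a log2 fold change of -0.86 ± 0.18 and Atp6v1d, a subunit of its central stalk, one of 0.65 ± 0.16.

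Lamp1, the most used marker of the lysosomal membrane, had 57.0, 45.9 and 43.6 CPM in cDC1 and 130.2, 153 and 159.7 in cDC2. The lowest pool of cDC2 was more than the highest of cDC1, and the log2 fold change was -1.54 ± 0.22 (adjusted p = 2.72e-05). When the classes were taken from clusters made without the members in place of the marker gate, this was the one alternative in which the call was lost, at -0.62 (adjusted p = 0.287). The calls of Ppt1, Naaa and Arsb held in all 15 alternatives. Without the asthma pool the number of members called fell from 15 to 5 and without the tolerance pool to 6, while all genes called fell to 5.89% and 8.23%. Markers of classical monocytes summed to 225, 1070.0 and 932 CPM in cDC2 and to 13.3, 119 and 106 in cDC1. Their part in the differences was not tested.

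Mature DCs differed from resting cDC1 and cDC2 in most members, in both directions. Of the 37 members 16 were higher and 9 lower, beside 21.8% and 22.7% of all genes. Calls in both directions made up 67.6% of members and 44.5% of all genes. Of the 14 pump genes tested 8 were higher and 1 was lower, and of the 9 membrane proteins 4 were higher and 3 lower. Hydrolases were split, with 3 of 11 higher and 4 lower. The median log2 fold change was 0.31 over members and -0.05 over all genes.

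Cd63 (chromosome 10, bases 128900989 to 128912822), a tetraspanin of lysosomes and multivesicular bodies, had the largest fold change of the 37 members in either direction. Its levels in mature DCs overlapped those of interstitial macrophages, which had 607 to 1047 CPM. Mature DCs had 1002 CPM in the control pool, 931 in the asthma pool and 897 in the tolerance pool. The same pools gave 9.50, 1.88 and 1.28 CPM in cDC1 and 7.31, 4.32 and 6.21 in cDC2. Resting DCs thus sat at the level of B cells, which had 4.52 ± 5.70 CPM, and every pool of mature DCs was above every pool of resting DCs. The log2 fold change was 7.96 ± 0.25 (adjusted p = 7.24e-16). In cells, a Cd63 UMI was seen in 82.4% of mature DCs (77.7 to 86.4), 2.04% of cDC1 (0.753 to 4.39), 3.80% of cDC2 (2.50 to 5.52) and 1.09% of B cells (0.401 to 2.35). Thinned to 2000 UMIs, these shares were 71.9%, 1.37%, 1.49% and 0.862%.

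**Figure D2:**
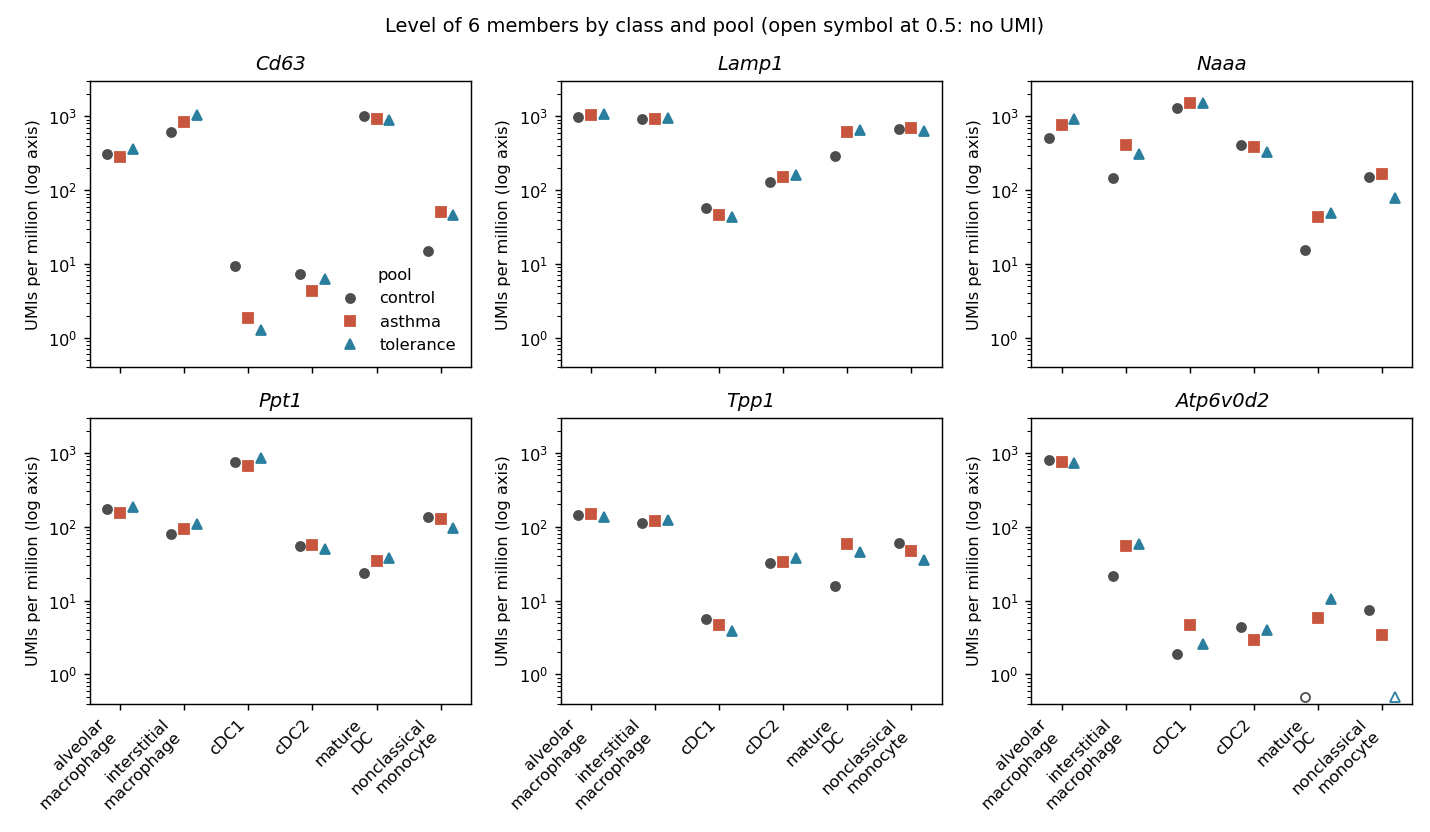
Level of 6 members in CPM on a log axis, by class, with 1 symbol per treatment pool and open symbols at 0.5 where a pool had no UMI. Cd63 is at 1.28 to 9.50 in resting DCs and 897 to 1002 in mature DCs, Ppt1 and Naaa are highest in cDC1, Tpp1 and Lamp1 are lowest in cDC1, and Atp6v0d2 is 731 to 792 in alveolar macrophages.

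The next 4 of the higher members by fold change were Atp6v0a1, Lamp1, Tpp1 and Npc2. Lamp1 was at 289.8, 607 and 649 CPM in mature DCs of the control, asthma and tolerance pools, above each pool of cDC1 and cDC2, with a log2 fold change of 2.85 ± 0.17 (adjusted p = 1.03e-11). Atp6v0a1, which encodes one form of the large a subunit of V0, had 54.8, 103 and 90.9 CPM, against 9.50, 12.2 and 6.41 in cDC1 and 39.5, 18.4 and 17.5 in cDC2. Its log2 fold change was 2.86 ± 0.29 (adjusted p = 5.29e-08). Tpp1 was higher by 2.16 ± 0.26 against the mean of both resting classes, which cDC1 lowers. Its mature DC levels were 15.7, 57.8 and 45.5 CPM, so that the control pool, with 2 UMIs, lay below the 32.2 of its cDC2, and a UMI was found in 22.3% of mature DCs and 22.4% of cDC2. Npc2, a soluble carrier of cholesterol, was higher by 1.81 ± 0.17.

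The lower members included enzymes, an exporter and a pump subunit. Naaa had 15.7, 43.7 and 49.6 CPM in mature DCs, a log2 fold change of -4.01 ± 0.31 (adjusted p = 9.79e-10) against resting cDCs. Arsb was counted 3 times in all mature DCs and 608 times in resting cDCs, so that its CPM was 2.06% of theirs (exact 95% interval from counting 0.423% to 6.04%). Ctns, the cystine exporter, was counted 2 times and 88 times, a ratio of 9.48% (1.13% to 35.3%), and its call was lost without the asthma pool. The log2 fold change was -2.34 ± 0.19 for Ppt1, -2.13 ± 0.19 for Man2b1 and -1.65 ± 0.25 for Atp6v0a2, which encodes another form of the a subunit. That of Ppt1 is against a mean which cDC1 raises, with 662.9 to 862.7 CPM. In mature DCs Ppt1 had 23.5, 34.7 and 37.2 CPM, closer to the 55.6, 57.2 and 50.2 of cDC2. Whether cells of the mature DC gate came from cDC1, cDC2 or both was not tested, so the reference was the mean of both.

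The same direction was seen in each of the 15 alternatives for Cd63, Lamp1, Atp6v0a1, Tpp1, Npc2, Naaa, Arsb, Ppt1, Man2b1 and Atp6v0a2, all of them called. Without the asthma pool, which holds 213 of the 318 mature DCs, 16 members were called, and calls over all genes fell from 44.5% to 26.5%. Without cycling cells 24 members were called, beside 43.4% of all genes. Markers of nonclassical monocytes summed to 901 CPM in mature DCs of the control pool, 257 in the asthma pool and 269 in the tolerance pool, and their part in the levels was not tested.

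**Figure D3:**
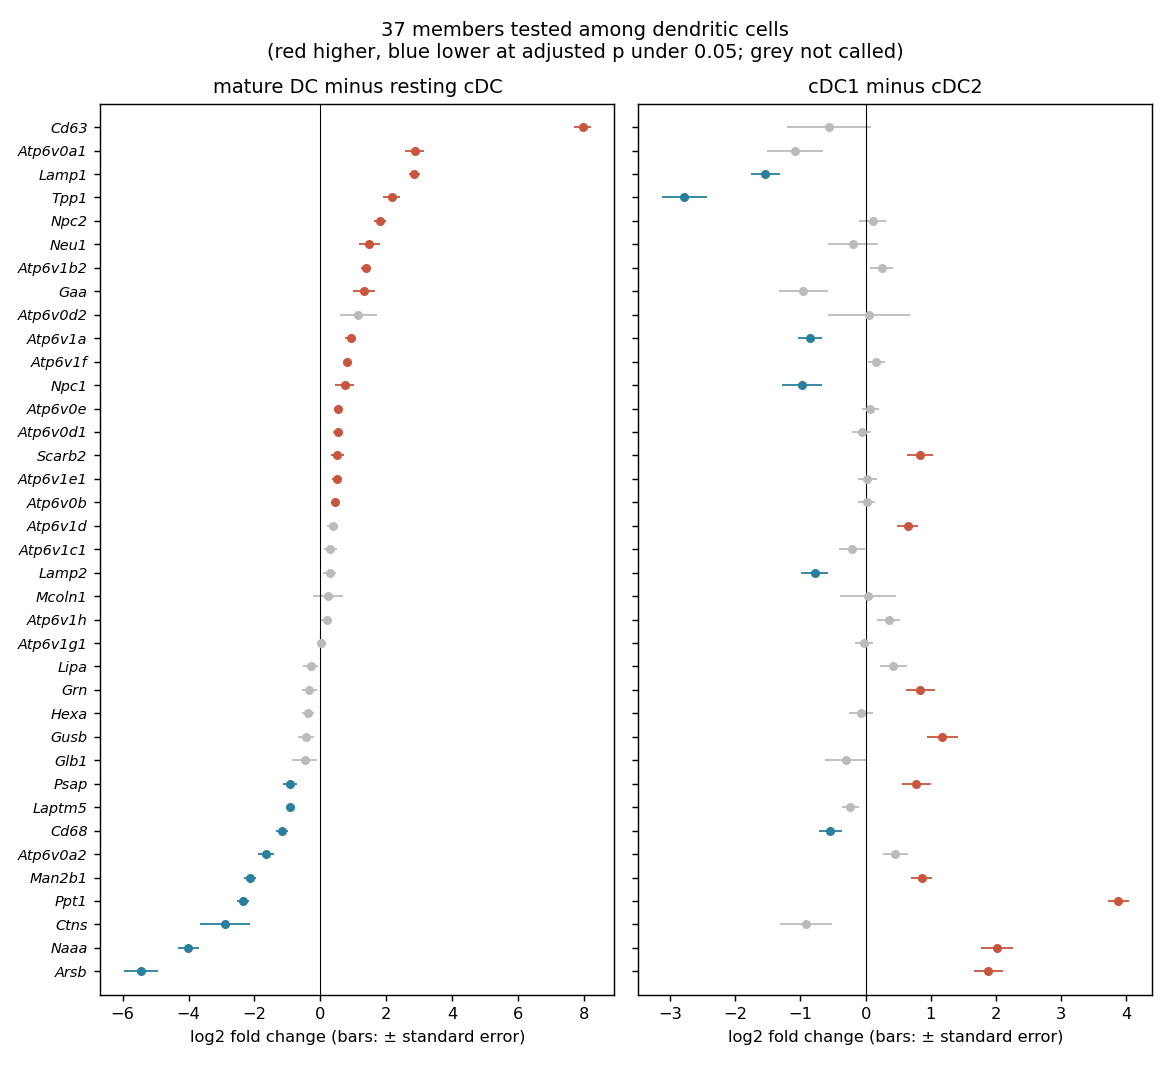
Log2 fold change with its standard error for the 37 members tested, in mature DCs against resting cDC1 and cDC2 (left) and in cDC1 against cDC2 (right), in 1 shared order of genes. Cd63 leads on the left at 7.96 and Arsb, Naaa and Ppt1 lie at -5.44, -4.01 and -2.34, and on the right, from the same cDC1 and cDC2 libraries, at 1.88, 2.02 and 3.88.

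Most genes of the pump were higher in alveolar than in interstitial macrophages. Over all roles 21 of 37 members were higher in alveolar macrophages and 6 lower, beside 19.4% and 18.6% of all genes. In all 73.0% of members and 38.0% of genes were called. Of the 14 pump genes tested 12 were higher, 1 was lower and 1 was not called. Among the 3 cofactors 0 were higher and 2 lower. The median log2 fold change of members was 0.52, and that of all genes 0.01. The 5 highest were Atp6v0d2, Neu1, Naaa, Mcoln1 and Atp6v1b2, and the 5 lowest were Cd63, Man2b1, Atp6v0a2, Npc2 and Grn.

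Atp6v0d2 (chromosome 4, bases 19876841 to 19922605) encodes the second form of the d subunit, which links V0 to the stalk, and is known for its high level in osteoclasts. It had 792, 748 and 731 CPM in alveolar macrophages and 21.7, 55.5 and 57.5 in interstitial macrophages, with no more than 10.3 in any pool of the other 4 classes. The log2 fold change between the macrophages was 3.85 ± 0.20 (adjusted p = 1.69e-12). Of alveolar macrophages 92.5% (91.7 to 93.2) had a UMI, beside 14.4% of interstitial macrophages (12.2 to 16.8), 2.63% of cDC2 and 1.45% of B cells (0.629 to 2.84). Thinned to 2000 UMIs the shares were 74.8%, 8.31%, 0.595% and 1.29%. The mean levels in DCs and nonclassical monocytes, at most 5.37 CPM, therefore did not exceed the 6.28 ± 3.66 CPM of B cells. The single value of 10.3 CPM was that of mature DCs in the tolerance pool. The paralogue Atp6v0d1 was found in every class, at 287 ± 10.3 CPM in alveolar macrophages, 149 ± 4.63 in interstitial macrophages and 92.5 ± 6.54 to 143 ± 11.8 in the rest.

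The other pump genes moved by smaller steps. Atp6v1b2, the B subunit of the V1 head, was 1.07 ± 0.14 log2 units higher in alveolar macrophages (adjusted p = 1.64e-06), and its paralogue Atp6v1b1 had no UMI in these classes. Atp6v1e1 was higher by 0.92 ± 0.13, Atp6v1c1 by 0.77 ± 0.15 and Atp6v1g1 by 0.86 ± 0.13, while their paralogues Atp6v1e2, Atp6v1c2, Atp6v1g2 and Atp6v1g3 had 0, 1, 53 and 1 UMIs over the 6 classes. Atp6v0e was higher by 0.52 ± 0.13, and Atp6v0e2 had 5 UMIs. In each of these families 1 gene held nearly all the UMIs.

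The a subunits were unlike these families, since Atp6v0a1 and Atp6v0a2 were both counted in every class and their orders differed. Atp6v0a1 was higher in alveolar macrophages, with 63.9, 96.6 and 84.0 CPM beside 47.0, 60.2 and 50.2 in interstitial macrophages (log2 fold change 0.57 ± 0.22, adjusted p = 0.0473), and this call held in 6 of 15 alternatives. Atp6v0a2 was called lower (log2 fold change -0.66 ± 0.18, adjusted p = 0.00684), with 31.9, 36.2 and 39.6 CPM beside 18.1, 75.8 and 56.3, so that the control pool went the other way. That call held in 11 of 15 alternatives. In cDC1 the mean levels were 9.37 ± 2.89 CPM for Atp6v0a1 and 107 ± 23.2 for Atp6v0a2, and in mature DCs 83.0 ± 25.1 and 26.0 ± 12.1. Set against resting cDCs, mature DCs were higher in Atp6v0a1 and lower in Atp6v0a2, both called in all 15 alternatives. Tcirg1, the a subunit whose symbol does not carry the Atp6v prefix, had 192 ± 49.5 CPM in alveolar macrophages, 146 ± 48.5 in interstitial macrophages and 38.7 ± 7.53 to 79.2 ± 11.6 in the rest, and did not pass the test between the macrophages (log2 fold change 0.29 ± 0.19, adjusted p = 0.242).

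**Figure D4:**
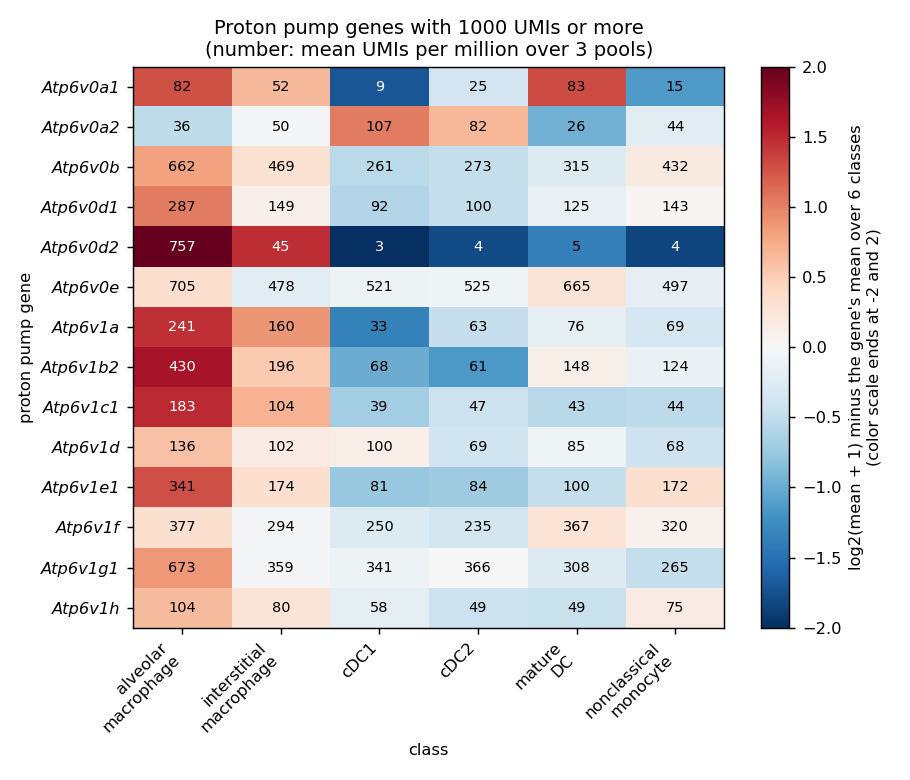
Proton pump genes with at least 1000 UMIs over the 6 classes (rows) by class (columns), with the mean CPM over 3 pools printed in each cell and the color showing log2(mean + 1) minus the mean of that gene over the classes. Most rows are darkest red in alveolar macrophages, the Atp6v0d2 row goes from 757 in alveolar macrophages to 44.9 in interstitial macrophages and at most 5.37 elsewhere, and the rows of Atp6v0a1 and Atp6v0a2 differ in color in cDC1, cDC2 and mature DCs.

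Outside the pump, alveolar macrophages had more Neu1, the sialidase, at a log2 fold change of 1.32 ± 0.21 (adjusted p = 3.03e-05), more Naaa at 1.25 ± 0.24 and more Mcoln1, a calcium channel of the lysosomal membrane, at 1.17 ± 0.24. Laptm5, a membrane protein of blood cells, was higher by 1.01 ± 0.13, and Lipa, the acid lipase of cholesteryl esters, by 0.99 ± 0.16. Cd63 was lower, with 304, 282 and 356 CPM beside 607, 828 and 1047 in interstitial macrophages (log2 fold change -1.44 ± 0.20, adjusted p = 4.95e-06). The log2 fold change of Man2b1 was -1.13 ± 0.16, that of Npc2, whose pools overlapped, -0.63 ± 0.20 and that of Grn, the progranulin gene, -0.56 ± 0.20. Of the 21 higher calls 12 held in every alternative, and of the 6 lower calls those of Cd63 and Man2b1. Without the asthma pool 15 members were called and without the tolerance pool 16, beside 20.8% and 22.2% of all genes.

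Interstitial macrophages exceeded cDC2 in members of all 4 roles. Here 27 of 37 members were higher and 2 lower, beside 17.3% and 14.8% of all genes, and calls made up 78.4% of members and 32.1% of genes. The median log2 fold change was 0.98, beside 0.01 for all genes. Cd63 was higher by 7.24 ± 0.31 (adjusted p = 3.92e-13), Atp6v0d2 by 3.87 ± 0.32, Lamp1 by 2.63 ± 0.19, Grn by 2.30 ± 0.22 and Tpp1 by 1.78 ± 0.18. All 3 cofactors and 10 of 14 pump genes were higher. The 2 lower genes were Arsb, at -1.09 ± 0.26, and Atp6v0a2, at -0.58 ± 0.19 with overlapping pools, and neither call held in every alternative. Markers of cDC2 summed to 745, 1240.0 and 1030.0 CPM in interstitial macrophages, beside 4310.0 to 4950.0 in cDC2, and their part in the differences was not tested. Without the tolerance pool, which holds 543 of the 966 interstitial macrophages, 19 members were called, all of them higher, and calls over all genes fell from 32.1% to 14.5%.

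Nonclassical monocytes were lower than interstitial macrophages in 20 of 37 members and higher in 1, beside 15.4% and 15% of all genes, and calls made up 56.8% of members and 30.4% of genes. Cd63 was at 14.8, 49.8 and 45.9 CPM in these monocytes, a log2 fold change of -4.38 ± 0.28 (adjusted p = 1.08e-10). The log2 fold change was -3.95 ± 0.50 for Atp6v0d2, -2.12 ± 0.44 for Atp6v0a1, -1.59 ± 0.19 for Hexa, a lysosomal hexosaminidase gene, and -1.45 ± 0.22 for Grn. The 1 higher gene was Laptm5, with 1489, 1392 and 1516 CPM beside 979.5, 961 and 990.2, a log2 fold change of 0.58 ± 0.13 (adjusted p = 0.00226). Lamp1 had 663, 698 and 640.3 CPM in these monocytes and 911, 927 and 956 in interstitial macrophages (log2 fold change -0.48 ± 0.18, adjusted p = 0.0456), a call that held in 9 of 15 alternatives. Markers of interstitial macrophages summed to between 400 and 500 CPM in nonclassical monocytes, beside 9930 to 12400 in their own class. Markers of neutrophils summed to 1080.0, 1740.0 and 997 CPM in nonclassical monocytes and to at most 46.4 in interstitial macrophages. The part of either in the differences was not tested. Without the asthma pool 9 members were called and without the tolerance pool 11, all of them lower, and calls over all genes fell from 30.4% to 16.0% and 17.8%.

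Many lysosomal genes carry a shared promoter letter string, bound by TFEB and the related TFE3, MITF and TFEC, with the E-box CACGTG at its core. Promoter windows of 300 bases, from 250 before to 50 after the start of transcription, were found for 38 of the 45 members in RefSeq sequence of GRCm38.p6. The E-box, which reads the same on both strands, was in 8 of the 38 windows (21.1%) and in 8.09% of the windows of all genes. Its extension TCACGTGA, which contains the E-box, was in 4 (10.5%, all genes 1.12%), and the longer CLEAR motif, named for coordinated lysosomal expression and regulation, was in 0 (all genes 0.37%). These are letter matches and not binding sites. The stretches below are from members called in comparisons of classes, with matched letters in capitals. They are read 5′ to 3′ on the strand of the gene and end before the start of transcription in RefSeq. Glb1 and Gaa, each with 1 E-box before the start, were also called in some comparisons and are not printed. In Mcoln1 the second E-box lies within TCACGTGA, of which only the E-box is in capitals. Whether these letters bear on the levels was not tested.
Lamp1, 4 E-boxes, chr8:13159085-13159160, plus strand: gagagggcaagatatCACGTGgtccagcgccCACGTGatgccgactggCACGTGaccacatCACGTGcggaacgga
Mcoln1, 2 E-boxes, chr8:3500433-3500494, plus strand: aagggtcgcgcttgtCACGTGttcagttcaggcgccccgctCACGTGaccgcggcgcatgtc
Atp6v0b, 2 E-boxes, chr4:117887330-117887380, minus strand: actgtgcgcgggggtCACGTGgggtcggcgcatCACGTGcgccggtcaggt
Atp6v1a, the extended motif, chr16:44139369-44139406, minus strand: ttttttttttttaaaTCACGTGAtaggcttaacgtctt
The Lamp1 boxes lie between 61 and 15 bases before the start, which GENCODE gives at the same base. For Mcoln1, Atp6v0b and Atp6v1a GENCODE starts the gene at 3500457, 117887333 and 44139705, so that by its models those stretches lie partly or, for Atp6v1a, wholly after the start. Windows with at least 4 E-boxes were found for 6 of 27025 genes (0.0222%). Of the factors themselves, Mitf was at 76.8 ± 15.4 CPM in alveolar and 61.0 ± 14.2 in interstitial macrophages and at 2.11 ± 0.391 in cDC1 and 3.49 ± 0.521 in cDC2. Tfec was at 183 ± 24.1 and 44.3 ± 30.7 in the macrophages and under 8 CPM on average in the DCs and nonclassical monocytes. Tfeb and Tfe3 were found in all 6 classes, and their means ranged from 17.3 to 76.4 and from 32.4 to 61.4 CPM.

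The other genes of the lysosome were counted from lists of further hydrolases, membrane proteins, sorting receptors, regulators and pump accessories. Of 100 tested, 25 were higher and 21 lower in alveolar than in interstitial macrophages, 46.0% called beside 38.0% of all genes. In interstitial macrophages 61 were higher and 5 lower than in cDC2, 66.0% beside 32.1%, and in cDC1 13 were higher and 16 lower than in cDC2, 29.0% beside 16.0%. In mature DCs 31 were higher and 15 lower than in resting cDCs, and these 46.0% were close to the 44.5% of all genes. In nonclassical monocytes 9 were higher and 40 lower than in interstitial macrophages, 49.0% beside 30.4%. Among 40 further hydrolases, 5 were higher and 9 lower in cDC1 than in cDC2, with a median log2 fold change of -0.48, where the 11 hydrolases among the members had one of 0.43. The cathepsins Ctss and Ctsl were lower in cDC1, with log2 fold changes of -1.17 ± 0.19 and -1.31 ± 0.36. In mature DCs 16 of the 40 were higher and 7 lower, among them Lgmn, an asparaginyl endopeptidase, higher by 2.80 ± 0.23, and Ctss, higher by 0.74 ± 0.16.

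Differences between treatments within a class were described without a test, from the ratio of CPM between pools. A gene with at least 100 UMIs in both pools together was counted where the ratio passed 2-fold in the same direction in both lanes. Intervals on these ratios and on shares of cells cover counting error only. In alveolar macrophages 0 of 37 members passed in either allergen pool against control, beside 3.72% of all genes in the asthma pool and 4.85% in the tolerance pool. In cDC1 0 of 24 and 0 of 20 members passed (all genes 1.64% and 3.62%), and in cDC2 0 of 29 and 0 of 26 (6.05% and 3.94%). Between the allergen pools, 0 members passed in these 3 classes, interstitial macrophages and mature DCs, where 0.285% of all genes passed in alveolar macrophages, 0.316% in interstitial macrophages, 0.527% in cDC1, 0.134% in cDC2 and 0.389% in mature DCs.

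The cofactors Psap and Npc2 had allergen pools on the same side of control in several classes. Psap had 2890.0 CPM in alveolar macrophages of the control pool, 3969 in the asthma pool and 4681 in the tolerance pool, and 3311, 5822 and 5948 in interstitial macrophages. Both allergen pools were above control in each lane of both classes. The log2 ratio to control was 0.46 (counting interval 0.44 to 0.48) and 0.70 (0.67 to 0.72) in alveolar macrophages, and 0.81 (0.72 to 0.91) and 0.85 (0.75 to 0.94) in interstitial macrophages, in the asthma and tolerance pools. In cDC1 Psap had 4080.0, 3877 and 4034 CPM, and the counting intervals of both log2 ratios held 0. In cDC2 control was the highest pool, with 2901 CPM beside 2174 and 2278, a log2 ratio of -0.42 (-0.49 to -0.34) and -0.35 (-0.43 to -0.27).

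Npc2 had its control value at the same end as Psap in both macrophage classes and in cDC2. It had 623, 865 and 1017 CPM in alveolar macrophages, 889, 1356 and 1519 in interstitial macrophages and 1026, 1539 and 1742 in mature DCs, with control the lowest pool in each. In cDC2 it had 546, 423 and 382 CPM, with control the highest. None of these ratios reached 2-fold. Grn had 454, 469.5 and 521 CPM in alveolar macrophages and 157, 113 and 149.6 in cDC2, and the counting interval of its log2 ratio to control held 0 in the asthma pool of the former and in the tolerance pool of the latter. Markers of interstitial macrophages summed to 44.4 CPM in alveolar macrophages of the control pool and 115 in the tolerance pool, and markers of classical monocytes to 225, 1070.0 and 932 in cDC2 and to 97.6, 224 and 299 in interstitial macrophages. Their part in the cofactor values was not tested.

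**Figure D5:**
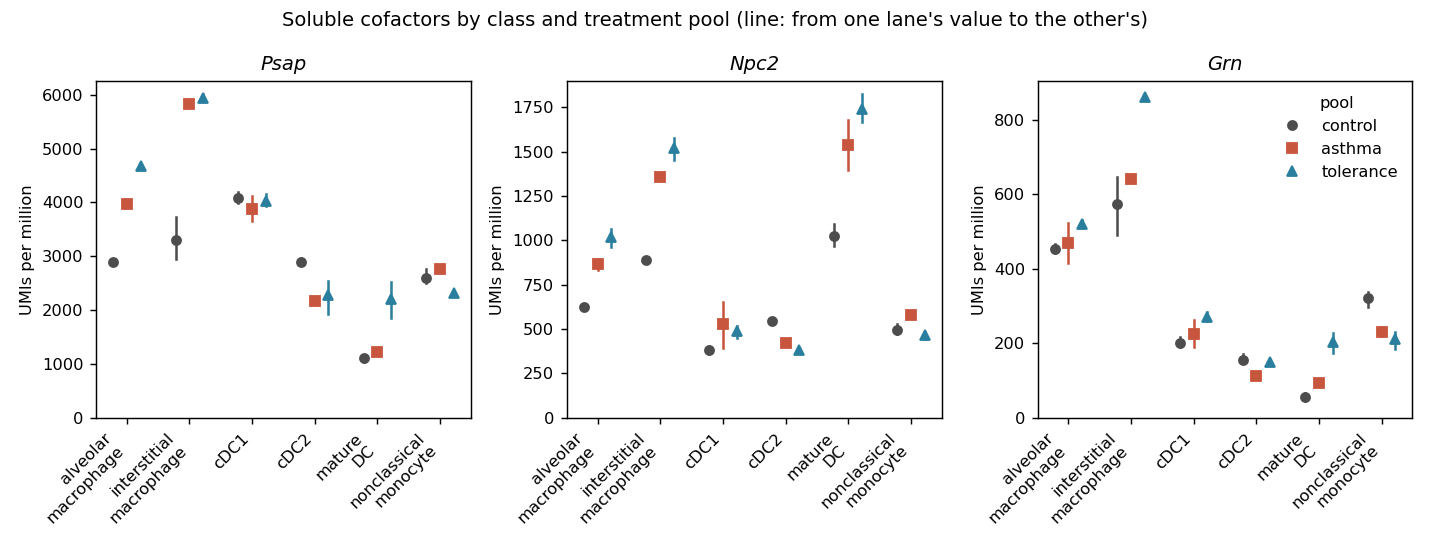
Level of the 3 soluble cofactors (CPM, vertical axes from 0) by class, with 1 symbol per treatment pool and a line from the value of one lane to that of the other. Psap in the control pool is below both allergen pools in alveolar macrophages (2890.0 beside 3969 and 4681) and above both in cDC2 (2901 beside 2174 and 2278).

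Ratios past 2-fold in both lanes were found for members in interstitial macrophages, mature DCs and nonclassical monocytes. In interstitial macrophages of the asthma pool 3 of 32 members were above control, beside 5.75% of all genes in either direction and 4.25% above. They were Naaa with 412 CPM beside 148, Atp6v0a2 with 75.8 beside 18.1 and Neu1 with 51.2 beside 10.8. The control values of Atp6v0a2 and Neu1 rest on 5 and 3 UMIs, none of Neu1 from lane 2, and the counting intervals of their log2 ratios were 0.82 to 3.71 and 0.65 to 4.54. In the tolerance pool 2 of 34 were above control (4.66% of all genes in either direction, 3.64% above), Neu1 with 72.4 CPM and Atp6v0d2 with 57.5 beside 21.7, the latter from 6 UMIs in control. Summed markers of alveolar macrophages were 54.2 CPM in control interstitial macrophages, 149 in the asthma pool and 117 in the tolerance pool, and their part in the Atp6v0d2 values was not tested.

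In mature DCs of the asthma pool Lamp1, with 607 CPM beside 289.8, and Lamp2, with 129.6 CPM beside 39.2, were above control, 2 of 20 members beside 7.84% of all genes in either direction and 5.89% above. In the tolerance pool Lamp1, with 649 CPM, and Grn, with 203 beside 54.8, were above control, 2 of 11 members beside 8.61% in either direction and 5.42% above. Control counts of these genes were 37 for Lamp1, 5 for Lamp2 and 7 for Grn. In nonclassical monocytes 0 of 20 and 0 of 14 members passed against control (0.143% and 0.385% of all genes), and Naaa was lower in the tolerance than in the asthma pool, with 78.3 CPM beside 165, 1 of 20 members beside 0.192% of all genes. The 10 ratios were counted over 472 pairs of member and comparison.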

How the data were processed

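The deposited files hold UMI counts per gene and barcode, which the authors made by aligning to mm10 with STAR inside Cell Ranger 3.1.0 and assigned to treatments by hashtag in Seurat 3.1.5. Counts were used unscaled. Kept barcodes had at most 20000 UMIs, at most 20% of them mitochondrial, and at least 500 genes, since the gene floor printed in the study's methods is above any barcode here. Scrublet's own threshold called only 0.0585% of cells doublets in lane 1 and 0.484% in lane 2, so the highest 2% of scores (225 cells) were removed. Cells were gated in Python 3.11.15 with scanpy 1.11.5, and figures drawn with matplotlib 3.10.9. UMIs were summed per pool and class, lanes added, giving 18 libraries of 127684 UMIs or more. Genes were tested by edgeR's quasi-likelihood test (version 4.0.16 under R 4.3.3, TMM scaling) with a block for pools, leaving 10 residual degrees of freedom, at a Benjamini-Hochberg adjusted p of 0.05. The classes of a pool come from the same mice. The 3 pools had different treatments and served as the replicates of a class difference. Same-pool deviations had median correlations of 0.164, 0.138 and 0.110 in the control, asthma and tolerance pools. A class by treatment difference goes into the error. Shares have Clopper-Pearson intervals at 95%. Coordinates are those of GENCODE for GRCm38. The step was tested on simulated counts. For each comparison up to 5 called members with the largest fold change in each direction were named. The paralogous pump genes were all named only for alveolar against interstitial macrophages. Other genes were named after their values were seen. Members, markers, lists and alternatives were chosen with earlier results of these data known. DESeq2 1.42.0, RLE, no filter, no block, lanes, pools left out, clusters, gates, floors and thinning were alternatives, and the version without cycling cells was added after the data were seen.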

Additional observations from a re-analysis of the deposited data

Results flagged for a closer look

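In 5 members the ratio to control was above 1 in one class and below 1 in another, in both lanes, for both allergen pools and with counting intervals that exclude 1. The difference between classes was not tested, since each treatment has 1 pool. How many of all genes meet this rule was not counted, so the 5 are not a result about members as a group. Where counts are high, ratios as small as -0.08 pass. Values are log2 ratios of CPM, asthma first and tolerance second. Psap was at 0.46 and 0.70 in alveolar macrophages, 0.81 and 0.85 in interstitial macrophages and -0.42 and -0.35 in cDC2. Npc2 was at 0.47 and 0.71 in alveolar macrophages, 0.61 and 0.77 in interstitial macrophages, 0.59 and 0.76 in mature DCs and -0.37 and -0.51 in cDC2. Atp6v0d2 was at 1.35 and 1.41 in interstitial and -0.08 and -0.12 in alveolar macrophages. Neu1 was at 2.24 and 2.74 in interstitial macrophages, from 3 UMIs in control, and -0.29 and -0.19 in alveolar macrophages. Atp6v1f, a V1 subunit, was at 0.42 and 0.37 in cDC2 and -0.08 and -0.22 in alveolar macrophages.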

How the results depend on the processing

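None of the calls of members turned its direction in the 15 alternatives of each comparison between classes. The counts of members called ranged, outside the fits without a pool, from 20 to 28 for alveolar against interstitial macrophages (27 as reported), 23 to 30 for interstitial macrophages against cDC2 (29), 21 to 25 for mature DCs (25) and 16 to 22 for nonclassical monocytes (21). For cDC1 against cDC2 (15) they were 8 with cells thinned to 2000 UMIs, where fewer genes were tested, and 11 to 16 otherwise. Without 1 pool at a time the counts were 15 to 30, 19 to 30, 5 to 16, 16 to 28 and 9 to 20, in the order alveolar against interstitial macrophages, interstitial macrophages against cDC2, cDC1 against cDC2, mature DCs and nonclassical monocytes. The low ends came from leaving out the asthma or the tolerance pool, not the control pool. Without the pool as a block the counts were 20, 28, 11, 23 and 20. Fold changes under alternatives were compared for the up to 5 members per direction and for the paralogous pump genes, in every comparison. Of these 1113 stayed on their side of the threshold, 80 were no longer called and 4 became called. The share of members in UMIs moved by more than its SD in 1 of 36 alternatives, for cDC1 without cycling cells. The 10 ratios past 2-fold between treatments became 2 with thinned cells and 9 to 15 otherwise. Of the 10, 1 was kept with thinned cells, 4 with clusters in place of gates, 5 in each lane alone and 7 to 10 otherwise. Control mature DCs (29 cells) and control interstitial macrophages (55 cells) limit those ratios, and genes with few UMIs, such as Ctns and Arsb in mature DCs, have wide intervals.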
